A study of Mus musculus with 23 samples.

Results

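The respiratory chain was followed in retinal microglia through 54 transcripts, of which 13 are encoded by the mitochondrial genome and 41 by the nuclear genome. The members were chosen by gene symbol from the table of 35825 genes, all 54 were found, and all 54 passed the filter on low values that left 17102 genes for testing. The list was proposed with levels of these same libraries in view, so counts over the members and the means per library are descriptions. The fold changes and adjusted p-values of single members come from 1 fit over all 17102 genes.

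GFP+ microglia had been sorted from mouse retinas and sequenced as bulk RNA in 23 libraries. All mice carried GFP in the Cx3cr1 locus. CX3CR1-GFP mice with intact Spp1 (WT) gave 4 libraries from naïve retinas, 4 from retinas at 4 weeks after elevation of the intraocular pressure (IOP) with microbeads, and 3 from retinas at day 7 after optic nerve crush (ONC). Spp1 KO; CX3CR1-GFP mice (KO), which lack functional Spp1 in all cells, gave 4 libraries in each of the same 3 conditions. Retinas of several mice were pooled for a library according to the study's methods, ages are not stated, and p-values measure the spread between such pools. In bulk RNA, fewer cells of a type and less RNA per cell cannot be told apart.

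The respiratory chain passes electrons from NADH and succinate to oxygen and pumps protons across the inner mitochondrial membrane, and ATP synthase uses the resulting gradient. Complexes I, III and IV and ATP synthase are built from subunits of both genomes, while complex II and cytochrome c are encoded in the nucleus alone. The mitochondrial genes are transcribed as long polycistronic RNAs from both strands and then cut apart, whereas each nuclear subunit has a promoter of its own. Microglia shift between oxidative phosphorylation and glycolysis when they become activated.

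The mitochondrial members lie close together on chrM of GRCm38, and some share bases. mt-Atp8 and mt-Atp6, the mitochondrially encoded subunits of ATP synthase, overlap by 43 bases at chrM:7927-7969. mt-Nd4l and mt-Nd4 of complex I overlap by 7 bases at chrM:10167-10173. A read inside either overlap belongs to both of its genes. mt-Atp6 and mt-Co3 share base 8607. mt-Nd6 is the member on the minus strand (chrM:13552-14070), and it overlaps mt-Nd5 on the plus strand (chrM:11742-13565). Strand handling is not given, so reads in that overlap may count for either gene. The first overlap is shown because the values of its 2 genes share reads there:
mt-Atp8 and mt-Atp6 overlap: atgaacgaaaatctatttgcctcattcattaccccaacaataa

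A second kind of shared sequence changed how 3 members should be read. Unprocessed pseudogenes on chromosome 1 are near-identical copies of mitochondrial genes, and the deposited table gives them counts of their own. Gm10925 (chr1:24613974-24614651) matched mt-Atp6 over 678 bases with 0 differences and held 46.0% as many normalized counts as mt-Atp6. Gm28438 (chr1:24612775-24613119) matched mt-Nd3 over 345 bases with 1 difference and held 62.7% as many. Gm29216 (chr1:24615706-24616197) matched mt-Co1 over 483 bases with 1 difference and held 32.4% as many. The other copies found for mt-Co1, mt-Co2, mt-Co3, mt-Nd2, mt-Nd4, mt-Nd4l and mt-Nd5 each held under 1% of their member's level. The stretches around the single differing base, in capitals, show how little separates gene from copy. The mt-Nd3 stretch is chrM:9459-9548 on the plus strand and its copy is chr1:24613030-24613119 on the minus strand. The mt-Co1 stretch is chrM:6390-6479 and its copy is chr1:24616099-24616188 on the minus strand.
mt-Nd3: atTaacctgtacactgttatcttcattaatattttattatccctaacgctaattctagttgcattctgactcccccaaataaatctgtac
Gm28438: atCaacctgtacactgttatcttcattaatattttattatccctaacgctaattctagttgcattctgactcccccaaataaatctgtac
mt-Co1: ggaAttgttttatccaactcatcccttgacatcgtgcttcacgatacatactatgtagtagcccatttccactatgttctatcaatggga
Gm29216: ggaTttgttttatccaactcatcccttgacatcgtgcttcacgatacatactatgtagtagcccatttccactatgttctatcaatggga

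The share that the copy took of a gene and its copy together was even between libraries for mt-Co1 (22.1 to 26.6%) but not for mt-Nd3. It reached 63.1% for mt-Nd3 in WT naïve, 61.4% in WT IOP and 61.8% in WT ONC libraries, and in KO libraries it ran from 6.77 to 30.0%. Values of mt-Nd3 are therefore given with and without Gm28438. Among nuclear members, Cox4i1, Cycs and Ndufb5 had an overlapping gene or a copy at 5% or more of their level.

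**Figure D1:**
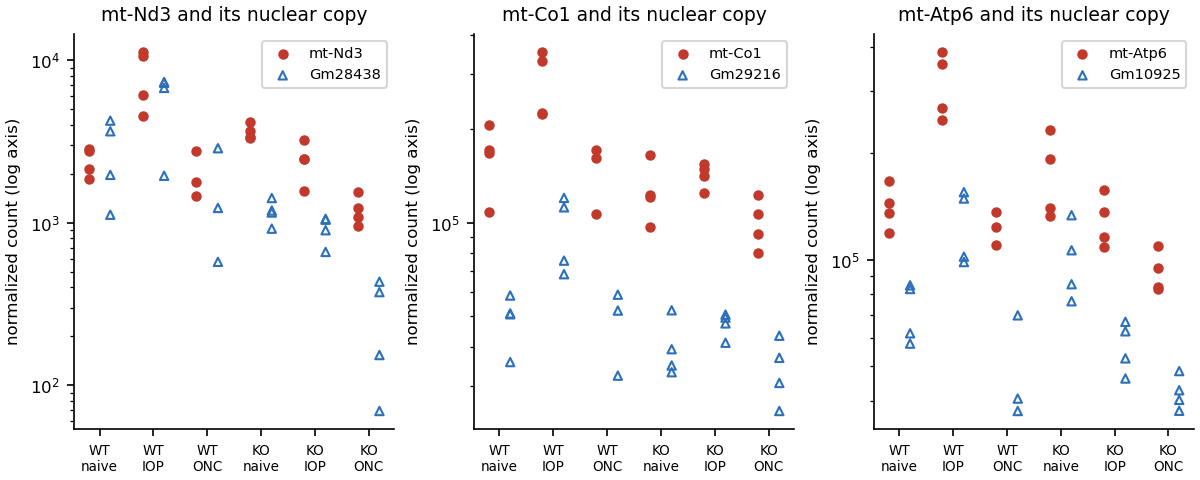
Normalized counts (log axis) of mt-Nd3, mt-Co1 and mt-Atp6 (filled circles) and of their nuclear copies Gm28438, Gm29216 and Gm10925 (open triangles), 1 point per library in each of 6 groups. Gm28438 spans 69.4 to 7333 normalized counts and is as high as mt-Nd3 in several WT libraries, while Gm29216 lies below mt-Co1 at an even distance.

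Reads on genes could be recovered for 21 libraries and ranged from 22180480 to 30296094. The 8 microglia markers were detected in every group and summed to between 239122 and 1058720 normalized counts per library. Spp1 ranged from 334 to 1518 in WT naïve against 6.78 to 350.2 in KO naïve, from 1343 to 2772 against 9.28 to 811 after IOP elevation, and from 14557 to 22906 against at most 6811 after ONC. Spp1 was thus lower in KO but not absent, and the naïve groups overlapped. Markers of other cells were present in the sorted material and were uneven. The 16 lens genes of the table summed to between 39097 and 271777 in the WT IOP libraries and to at most 6276 in any other library. Rod genes summed to between 164302 and 657043. The naïve KO libraries 1, 2 and 4 had microglia marker sums of 239122 to 285488, the lowest of all libraries. WT ONC replicate 1 had the highest total of normalized counts (37006400, against 32229800 for the next library) and a microglia marker sum of 1058720, with 965782 in WT ONC replicate 3. Reads could not be recovered for KO IOP replicates 2 and 4, whose values are not whole multiples of what 1 read is worth.

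Per kb of annotated exon length, mitochondrial members had far higher levels than nuclear members. The mean normalized count per kb over 23 libraries had a median of 104189 for the 13 mitochondrial members and of 1599 for the 41 nuclear members. The highest was mt-Co3, a core subunit of complex IV, at 341007, followed by mt-Atp6 at 241511 and mt-Cytb, the cytochrome b of complex III, at 180985. The lowest mitochondrial member was mt-Nd3 at 9629, by this measure above the highest nuclear member, Cox8a of complex IV, at 8045. These levels leave out the nuclear copies. Gm10925 held 46.0% as many counts as mt-Atp6, and Gm28438 held 62.7% as many as mt-Nd3. The places of mt-Atp6 and mt-Nd3 in this order therefore depend on where such reads are counted. The length merges the exons of all annotated transcripts, 3567 bases for Cox6c against 738 in its longest coding transcript. For Cox4i1 these lengths were 1550 and 765. The levels of nuclear members per kb, and their order, therefore depend on the annotation.

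Among nuclear members of complex I, levels per kb ran from 352 for Ndufs1, an iron-sulfur subunit, to 5423 for Ndufa1. In complex II they ran from 605 for the membrane anchor Sdhc to 3643 for the flavoprotein Sdha. In complex III they ran from 1162 for the core protein Uqcrc2 to 3404 for Uqcrb, and in complex IV from 825 for Cox6c to 8045 for Cox8a. Cytochrome c (Cycs) stood at 752. By this measure these levels span less than the step between the medians of the genomes.

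Over all 23 libraries together, the 2 sets did not follow each other. Pairwise Pearson correlations of log2 values over 23 libraries had a median of 0.94 among mitochondrial members (78 pairs) and 0.70 among nuclear members (820 pairs), and of 0.03 between the sets (533 pairs). After subtraction of the group means these medians were 0.79, 0.78 and 0.08. Genes measured in the same library share its depth and its scaling. The mean over 41 nuclear members and that over 13 mitochondrial members had a correlation of -0.02. WT ONC replicate 1 had the highest nuclear mean (12.57), with a mitochondrial mean of 14.76. WT IOP replicates 1 and 4 had the highest mitochondrial means (16.61 and 16.72), with nuclear means of 11.69 and 11.65. These correlations were not computed without WT ONC replicate 1.

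The mean log2(normalized count + 1) of the mitochondrial members was 15.29 ± 0.20 (SD, n = 4) in WT naïve, 16.35 ± 0.37 (n = 4) in WT IOP and 14.87 ± 0.23 (n = 3) in WT ONC. In KO it was 15.61 ± 0.28 in naïve, 15.17 ± 0.22 in IOP and 14.57 ± 0.21 in ONC libraries (n = 4 each). WT IOP was the highest group, with all 4 libraries (15.99 to 16.72) above the other 19 (14.36 to 15.95). KO ONC was the lowest group, below every KO IOP library (14.36 to 14.85 against 14.88 to 15.36). In the order of the means, KO naïve and WT naïve, WT naïve and KO IOP, KO IOP and WT ONC, and WT ONC and KO ONC each overlapped.

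As a share of all normalized counts the 13 genes took 3.74 to 4.87% in WT naïve, 6.64 to 11.2% in WT IOP and 2.59 to 3.14% in WT ONC. They took 5.07 to 7.35% in KO naïve, 3.12 to 4.14% in KO IOP and 1.83 to 2.62% in KO ONC. The nuclear members moved in a narrow range. Their mean was 11.17 ± 0.06 in WT naïve, 11.45 ± 0.26 in WT IOP, 11.25 ± 0.07 in KO naïve, 11.22 ± 0.02 in KO IOP and 11.38 ± 0.10 in KO ONC. WT ONC had 11.72 ± 0.73, because replicate 1 stood at 12.57 against 11.26 and 11.34 for the other 2 libraries.

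**Figure D2:**
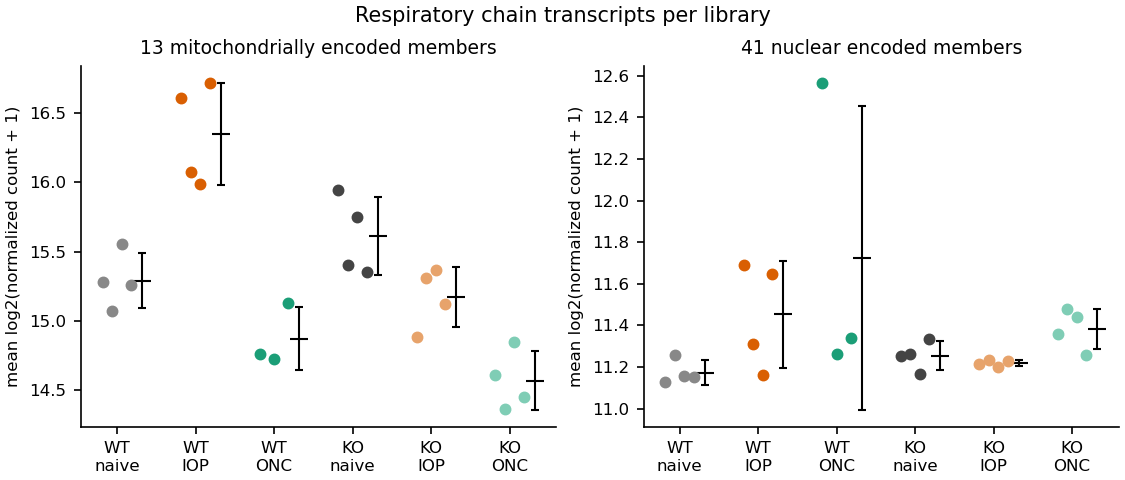
Mean log2(normalized count + 1) per library over the 13 mitochondrial members (left) and the 41 nuclear members (right), with points for libraries and bars for group mean ± SD. The 4 WT IOP libraries lie at 15.99 to 16.72 on the left, and WT ONC replicate 1 stands alone at 12.57 on the right.

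In naïve retinas, the comparison of KO with WT asks what loss of Spp1 does without injury. 0 of 54 members were called by limma (adjusted p under 0.05 and absolute log2 fold change over 0.58), where 0.409% of all genes were. At an unadjusted p under 0.05 there were 2 mitochondrial members and 1 nuclear member, and edgeR and DESeq2 called 0. Mitochondrial members leaned higher in KO, with a median log2 difference of 0.33 against 0.03 over all tested genes, and 12 of 13 positive. The exception was mt-Co1, the catalytic subunit of complex IV, at -0.36 (SE 0.26, adjusted p = 0.527). mt-Nd3 had the highest value, 0.62 (SE 0.27, adjusted p = 0.269), but with Gm28438 added it was -0.06 (SE 0.29). Nuclear members had a median of 0.07, from -0.25 for Sdhd to 0.50 for Ndufv1, the subunit that binds NADH. Libraries did not overlap for mt-Nd3, mt-Co3, mt-Cytb and Ndufs3, all higher in KO, as for 4.30% of all tested genes. Markers of bipolar cells, rods and pigment epithelium leaned higher in KO naïve libraries and microglia markers lower. Border macrophage and lens markers had lower mean log2 levels in KO naïve (9.28 and 4.26) than in WT naïve libraries (10.51 and 5.26). All 8 bipolar cell genes were positive (median 1.08, sums of 14264 to 40601 in KO and 10556 to 12205 in WT), as were 9 of 9 rod genes (median 0.50) and 7 of 8 pigment epithelium genes (median 2.88). All 8 microglia markers were negative (median -1.04, 1 called). Their part in these differences was not tested.

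After IOP elevation, mitochondrial transcripts were lower in KO than in WT microglia. 12 of the 13 mitochondrial members were called lower and 0 of the 41 nuclear members were called in limma, while 1.64% of all genes were called lower. The 13 log2 differences ran from -0.96 to -1.69 with a median of -1.08, against -0.03 over all tested genes. All 13 had every KO library below every WT library, as did 7.86% of all tested genes. The member not called was mt-Co1 at -0.96 (SE 0.26, adjusted p = 0.0513).

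mt-Nd3, a membrane subunit of complex I, had 10535, 6130, 4559 and 11263 normalized counts in the WT IOP libraries and 1561, 3211, 2468 and 2460 in the KO IOP libraries. Its log2 difference was -1.69 (SE 0.27, adjusted p = 0.00154), and -2.02 (SE 0.29, adjusted p = 0.000457) with its copy added. WT libraries 1 and 4 were the high ones.

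mt-Nd4, a proton-pumping subunit of complex I, had 140833, 96757, 98840 and 155044 in WT and 38027, 54537, 57272 and 45324 in KO. The difference was -1.32 (SE 0.22). mt-Nd2 had 86820, 59604, 55682 and 93764 against 22284, 33942, 33098 and 28917, a difference of -1.31 (SE 0.22). mt-Nd6, from the other strand, had 18482, 12940, 11629 and 20554 against 5239, 7552, 6336 and 6156, a difference of -1.30 (SE 0.22). In each of these genes WT libraries 1 and 4 were the highest and WT libraries 2 and 3 still exceeded every KO library.

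The other members of complex I were close to these. The differences were -1.24 for mt-Nd1, -1.08 for mt-Nd4l and -0.99 for mt-Nd5. In complex IV they were -1.08 for mt-Co2 and -1.03 for mt-Co3, the latter just inside the threshold (adjusted p = 0.0477). mt-Cytb of complex III stood at -1.0. For ATP synthase, mt-Atp6 stood at -1.27 and mt-Atp8 at -1.05, and with Gm10925 added mt-Atp6 was -1.23 (SE 0.25, adjusted p = 0.0112).

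Nuclear members leaned the same way by less, and none was called. Their median was -0.22, against -0.03 over all tested genes, with 32 of 41 negative. They ran from -0.87 for Ndufa4 to 0.59 for Uqcrfs1, the Rieske iron-sulfur protein. By limma 6 of 41 had an unadjusted p under 0.05, and edgeR and DESeq2 called 0. Ndufa4, listed with complex I and also described as a subunit of complex IV, had 6663, 3795, 2754 and 6784 in WT and 2466, 2555, 2583 and 2625 in KO (adjusted p = 0.10). Libraries did not overlap for Ndufa1, Ndufa4, Ndufb3, Ndufb8, Ndufb9, Ndufs4 and Uqcrb, all lower in KO (7 of 41, against 7.86% of all tested genes). Nor did they for Sdhd, higher in KO, as for 5.11% of all tested genes. The differences were -0.75 for Ndufa1, -0.65 for Uqcrb, -0.61 for Cox7b of complex IV and -0.27 for Cycs. The complex II median was 0.01.

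**Figure D3:**
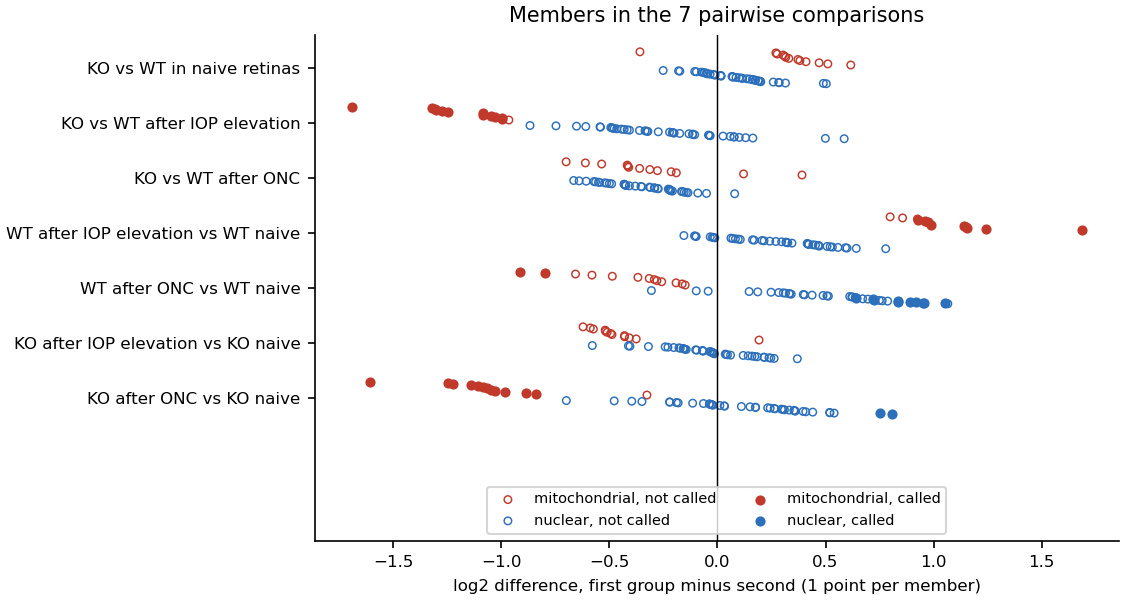
Log2 differences (first group minus second) of the 54 members in 7 pairwise comparisons, 1 point per member, with mitochondrial members in red, nuclear members in blue and called members filled. The 13 red points lie between -1.69 and -0.96 for KO against WT after IOP elevation and between 0.80 and 1.69 for WT IOP against WT naïve.

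Lens markers moved with this comparison. WT IOP libraries 1 and 4, with lens sums of 247741 and 271777, had the highest mitochondrial means (16.61 and 16.72), the highest rod sums of their group (494897 and 543567) and the lowest microglia marker sums of their group (361809 and 407846). Libraries 2 and 3, with lens sums of 57409 and 39097, had means of 16.08 and 15.99. KO IOP libraries had lens sums of 1836 to 2376 and means of 14.88 to 15.36. Without WT libraries 1 and 4 the 13 differences were still negative, from -0.66 to -1.17 with a median of -0.82, but 0 were called (lowest adjusted p = 0.151), and 29 genes were called in all. With the lens mean as a covariate the mitochondrial median was -0.63 and the nuclear median turned to 0.73. In that fit 0 members, and 0 of all genes, were called. The lens mean was 9.73 or more in WT IOP libraries and at most 6.59 in all others. That fit therefore cannot separate lens level from the WT IOP group, and its count of 0 decides nothing. Without KO IOP replicates 2 and 4, from which reads could not be recovered, 6 mitochondrial members were called and the median was -1.17. Leaving out WT IOP replicate 4 alone left 7 called. The 4 Y-linked genes, which mark the share of male animals in a pool, summed to 101 to 169 in KO IOP and 1269 to 4919 in WT IOP, and their part was not tested. edgeR called 1 mitochondrial member with a median of -1.19, and DESeq2 called 13. In both tools KO IOP rests on 2 libraries.

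**Figure D4:**
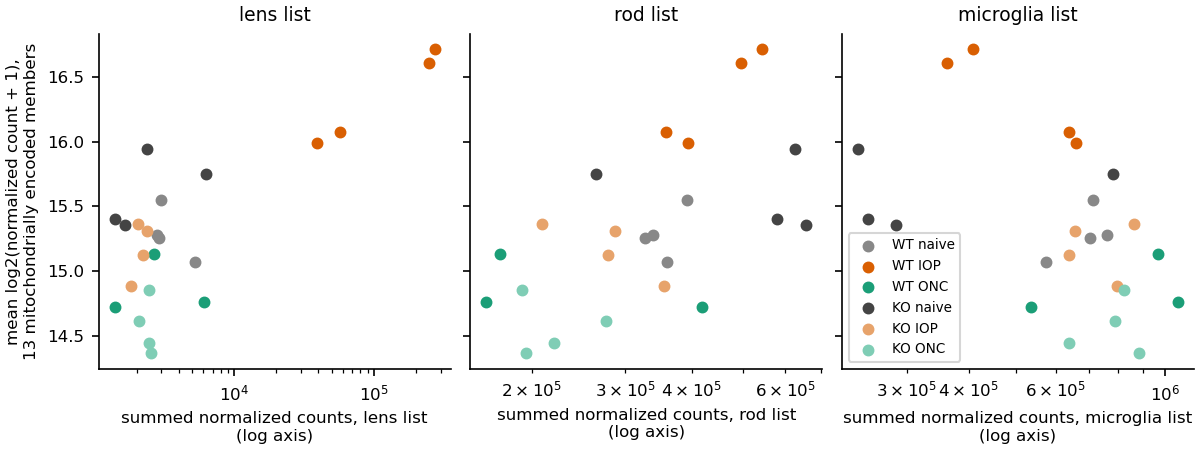
Mean log2 level of the 13 mitochondrial members per library against summed normalized counts (log x axes) of the lens, rod and microglia lists, coloured by group. The 4 WT IOP libraries have lens sums of 39097 or more, while all other libraries have 6276 or less, and the 2 with the highest lens sums have the highest mitochondrial means.

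Within WT, IOP libraries were compared with naïve libraries, so the pressure cannot be told apart from other effects of the microbead injection. 9 of 13 mitochondrial members rose, where 0.842% of all genes were called higher, and the median of the 13 was 0.98. mt-Nd3 rose by 1.69 (SE 0.27, adjusted p = 0.00177) from 2750, 2133, 2820 and 1863 normalized counts in WT naïve, and by 1.41 (SE 0.29, adjusted p = 0.0140) with its copy. mt-Nd6 rose by 1.24, mt-Nd4 by 1.16, mt-Nd2 by 1.15, mt-Atp6 by 1.14, mt-Cytb by 0.99, mt-Co2 by 0.97, mt-Nd1 by 0.96 and mt-Atp8 by 0.93. mt-Co3 (0.98), mt-Nd4l (0.93), mt-Nd5 (0.86) and mt-Co1 (0.80) did not pass the test. All 13 had every WT IOP library above every WT naïve library, and so did Ndufa1, Ndufb8, Ndufb9, Ndufb10 and Uqcrb, where 6.75% of all tested genes did. Of 16 lens genes 14 rose (sums of 2787 to 5240 in WT naïve and 39097 to 271777 in WT IOP), and all 8 microglia markers were negative with a median of -0.45 and 0 called. With the lens mean as a covariate the mitochondrial median was 0.66 and the nuclear median turned to -0.42. In that fit 0 members, and 0 of all genes, were called. Here too the fit cannot separate lens level from the WT IOP group.

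0 nuclear members were called in limma, edgeR or DESeq2, and 8 had an unadjusted p under 0.05. Their median was 0.32, with 33 of 41 positive, from -0.16 for Cyc1, the cytochrome c1 of complex III, to 0.78 for Ndufa4. Without WT IOP libraries 1 and 4 the median of the mitochondrial members was 0.70 and that of the nuclear members 0.05, and 0 members passed the test (lowest adjusted p = 0.118). Leaving out WT IOP replicate 1, WT IOP replicate 4 or WT naïve replicate 2 left 4 called members, and leaving out WT naïve replicate 1 or 4 left 5.

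In KO, IOP elevation went with no called member, where 7.88% of all genes were called in either direction. By limma, 8 mitochondrial and 2 nuclear members had an unadjusted p under 0.05, and edgeR and DESeq2 called 0. The mitochondrial median was -0.49 (12 of 13 negative) and the nuclear median -0.03, against -0.12 over all tested genes. mt-Co1 was the positive member at 0.19. mt-Nd3 stood at -0.62 and mt-Nd1 at -0.59. Sdhb and Sdhd, the iron-sulfur and anchor subunits of complex II, did not overlap between the groups and were higher after IOP elevation, by a difference of 0.37 for Sdhd, where 5.43% of all genes lay wholly higher. mt-Nd1, mt-Nd3, mt-Nd4, mt-Nd5, mt-Co2, mt-Co3 and Ndufa4 did not overlap either and were lower, as were 6.29% of all genes. Ndufa4 had 2466 to 2625 normalized counts in KO IOP and 2976 to 4691 in KO naïve. Of the 8 microglia markers 4 were called higher in KO IOP and 0 lower. The 4 Y-linked genes summed to 101 to 169 in KO IOP and 184 to 4927 in KO naïve libraries. The part of cell mixture or of sex was not tested. Quantile normalization gave 10 called members, and so did scaling to equal totals over nuclear genes.

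The interaction of genotype and IOP elevation tests whether the change from naïve differed between KO and WT. 12 mitochondrial members and Ndufa4 were called, all lower, where 3.90% of all genes were called lower. The median of the 13 mitochondrial members was -1.51, against -0.08 over all tested genes. mt-Nd3 had -2.31 (SE 0.38, adjusted p = 0.00195), and -1.97 (SE 0.41, adjusted p = 0.00923) with its copy. mt-Co1 had -0.61 (SE 0.36, adjusted p = 0.297). Ndufa4 had -1.36 (SE 0.40, adjusted p = 0.0373), with 3739, 4071, 2976 and 4691 normalized counts in KO naïve and 3126, 3021, 2272 and 2545 in WT naïve. This call of Ndufa4 was lost in 12 of the 16 fits that left out 1 library, and of the nuclear members edgeR called 0 and DESeq2 called 2. Without WT IOP libraries 1 and 4 together 1 member, mt-Nd3, was called. With the lens mean as a covariate 0 members were called, but that fit cannot separate lens level from the WT IOP group. With the microglia mean fewer were called. Lens sums were 39097 to 271777 in WT IOP libraries. Microglia marker sums were 239122 to 782663 in KO naïve and 572511 to 762533 in WT naïve libraries. Rod sums were 264063 to 657043 and 326896 to 391732. Y-linked genes summed to 101 to 169 in KO IOP and 1269 to 4919 in WT IOP libraries. In naïve libraries they summed to 184 to 4927 in KO and 106 to 5466 in WT. The part of other cells or of sex in this term was not tested.

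After ONC, no member passed the test between KO and WT. 0 of 54 members were called by limma, edgeR or DESeq2, where limma called 0.0877% of all genes, and 2 mitochondrial and 3 nuclear members had an unadjusted p under 0.05. Mitochondrial members had a median of -0.36 and nuclear members of -0.31, with 40 of 41 nuclear members negative. Without WT ONC replicate 1 the nuclear median was 0.07 with 31 of 41 positive, while the mitochondrial median was -0.38. The largest nuclear difference was Cox7a2 of complex IV at -0.66, followed by Uqcrq of complex III at -0.64. mt-Nd3 was -0.70, or -1.24 (SE 0.32, adjusted p = 0.164) with its copy. Libraries did not overlap for mt-Atp6 and Uqcrq, both lower in KO, as for 2.35% of all tested genes. Y-linked genes summed to 2919 to 5001 in KO ONC and 108 to 4633 in WT ONC libraries, and the part of sex was not tested. For the interaction of genotype and ONC 0 members were called by any of the 3 tools, where 0.0702% of all genes were by limma. There 6 mitochondrial and 3 nuclear members had an unadjusted p under 0.05.

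In KO, mitochondrial transcripts were lower after ONC and part of complex II was higher. 12 of 13 mitochondrial members fell and Sdhb and Sdhd rose, where 11.0% of all genes were called lower and 12.7% higher. The mitochondrial median was -1.07, against -0.12 over all tested genes, and edgeR and DESeq2 also called 12 mitochondrial members. mt-Nd3 fell from 3647, 3358, 4169 and 3338 normalized counts in KO naïve to 1227, 1082, 1549 and 956, a difference of -1.61 (SE 0.27, adjusted p = 0.000246), or -1.75 (SE 0.29) with its copy. mt-Co3 fell from 400426, 285115, 331400 and 271187 to 148244, 106662, 167778 and 122959, a difference of -1.24 (SE 0.27). mt-Nd2 fell by 1.22, mt-Nd4l by 1.14, mt-Co2 by 1.11, mt-Nd4 by 1.09, mt-Cytb by 1.07, mt-Nd5 by 1.05, mt-Nd1 by 1.03, mt-Atp8 by 0.98, mt-Atp6 by 0.88 and mt-Nd6 by 0.84. mt-Co1 stood at -0.33 (adjusted p = 0.370).

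The 12 that fell had no overlap between the groups, nor had Ndufa4 and Ndufa5, both lower, where 13.1% of all tested genes lay wholly lower. Ndufa1, Ndufa8, Ndufs3, Ndufs8, Sdhb, Sdhd, Uqcrc1, Cox4i1, Cox5a and Cox6a1 lay wholly higher, as did 13.4% of all tested genes. The nuclear members had a median of 0.18. Microglia marker sums were 239122 to 782663 in KO naïve and 639786 to 884019 in KO ONC, and rod sums were 264063 to 657043 and 192019 to 276531. Of the 8 microglia markers 6 rose, and 7 of 9 rod genes and 6 of 8 bipolar cell genes fell. With the microglia mean as a covariate the mitochondrial median was again -1.07, and 7 were called. With the rod mean it was -1.17, and 9 were called.

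In WT, ONC gave a different balance. mt-Nd5 and mt-Nd6 fell, by 0.80 (SE 0.25) and 0.91 (SE 0.24), where 10.5% of all genes were called lower, and the mitochondrial median was -0.32. 10 nuclear members rose, where 7.55% of all genes were called higher, and the nuclear median was 0.62 with 38 of 41 positive. The 10 were Ndufa1, Ndufa2, Ndufb7 and Ndufs3 of complex I, Sdhb, Sdhc and Sdhd of complex II, Uqcrq and Uqcrh of complex III, and Cox4i1 of complex IV, with rises of 0.64 to 1.05. Border macrophage and retinal ganglion cell markers fell in this comparison. Border macrophage genes summed to 17296 to 35102 in WT naïve and 2231 to 8151 in WT ONC libraries, with 6 of 8 called lower and a median of -3.91. Retinal ganglion cell genes had 7 of 9 called lower and a median of -2.81. Bipolar cell genes summed to 5704 to 22666 in WT ONC against 10556 to 12205 in WT naïve libraries. Rod genes summed to 164302 to 419150 in WT ONC against 326896 to 391732 in WT naïve. The part of these cells in the members' differences was not tested.

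WT ONC replicate 1 carried much of this. Ndufa2 had 5999, 2362 and 2053 normalized counts in the 3 WT ONC libraries against 1348 to 1651 in WT naïve. Cox4i1, the regulatory subunit of complex IV, had 27608, 8107 and 11991 against 7432 to 8154. In both genes replicate 1 was the highest. mt-Nd6 was lowest there too, with 2181 against 4010 and 4768, and 5623 to 8412 in WT naïve. Without replicate 1, 0 of 54 members were called by limma, the nuclear median was 0.12 and the mitochondrial median -0.39. Without replicate 2, 26 were called, and without replicate 3, 18.

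**Figure D5:**
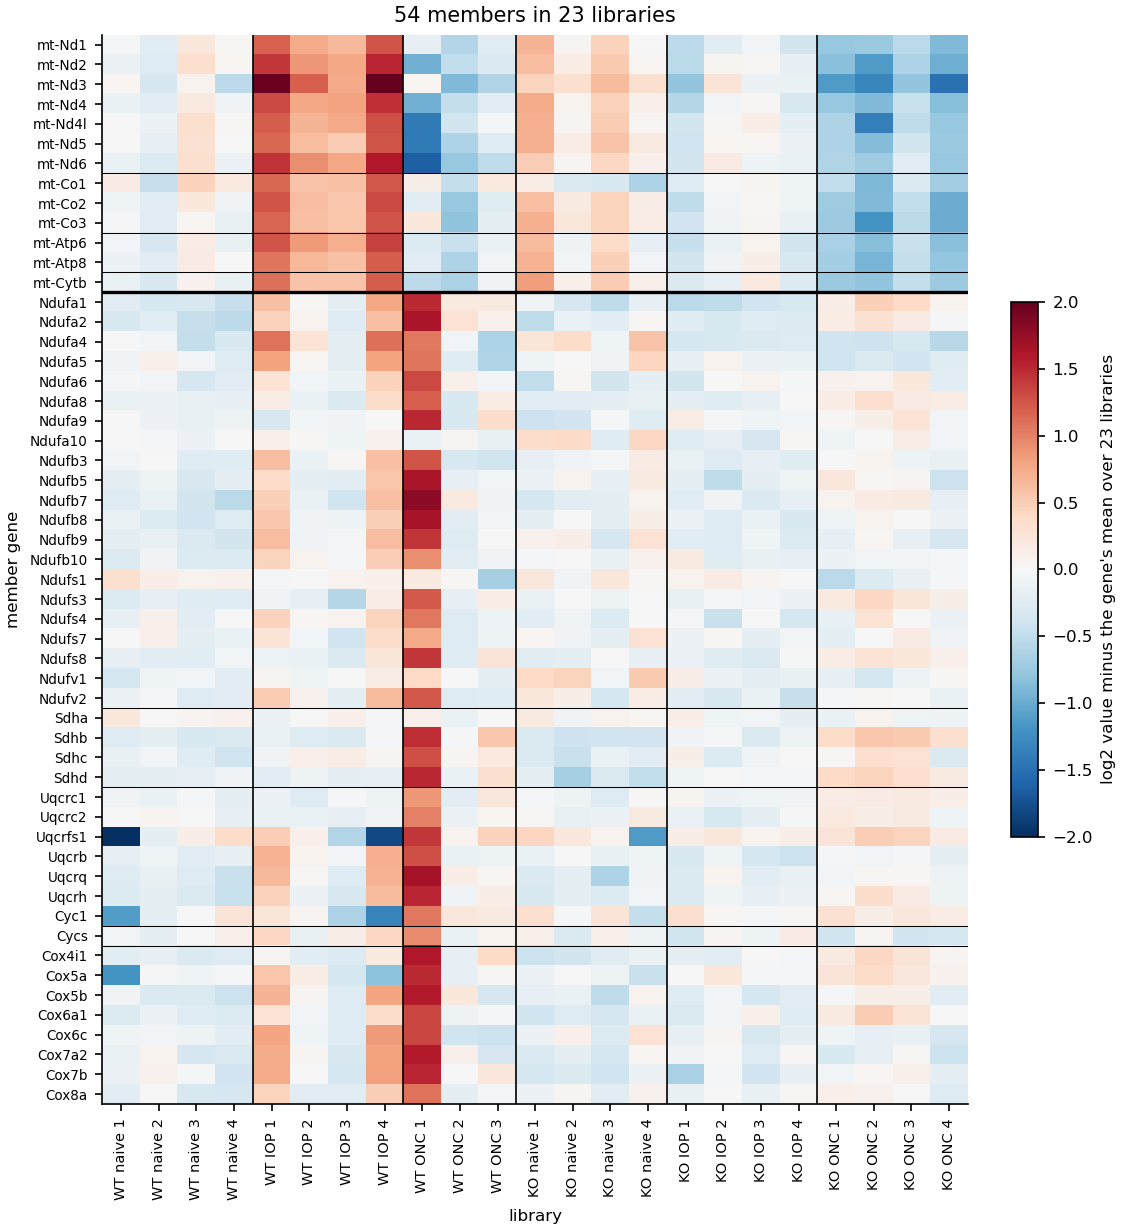
Log2 values of the 54 members (rows, mitochondrial above the thick line, then by complex) in 23 libraries (columns, by group), each minus the gene's mean over all libraries. The 4 WT IOP libraries are red over the mitochondrial rows, WT ONC replicate 1 is red over most nuclear rows, and Uqcrfs1, Cyc1 and Cox5a are blue in WT naive 1, WT IOP 4 and KO naive 4.

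Complex II, with no mitochondrial subunit, was split after ONC. Sdhb had 3072 to 3295 normalized counts in WT naïve and 10511, 3671 and 5500 in WT ONC, a rise of 0.92 (SE 0.21, adjusted p = 0.00458). In KO it had 2843 to 3088 in naïve and 4868, 5499, 5456 and 4756 in ONC libraries, a rise of 0.80 (SE 0.20, adjusted p = 0.00468). Sdhd rose by 0.72 in WT and by 0.75 in KO. In WT it had 10191, 3284 and 4463 in ONC libraries against 3143 to 3412 in naïve, so these groups overlapped. Without WT ONC replicate 1 none of the rises in WT was called. No ONC library of either genotype fell below a naïve library of its genotype in Sdhb. Sdha, the catalytic flavoprotein, stayed between 13218 and 17404 in all 23 libraries, with differences of -0.10 in WT and -0.11 in KO. Sdhc, an anchor subunit, rose by 0.73 in WT only by the test, and the difference between genotypes was not called. Both rises in KO were not called with the rod or the microglia mean as a covariate.

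A scaling choice bears on these directions. Scaled to equal totals over nuclear genes, the median of all tested genes moved from -0.12 to -0.54 for KO ONC against KO naïve, and the nuclear members' median moved from 0.18 to -0.26. Relative to the median gene the nuclear members were at 0.30 and 0.29, and the mitochondrial members at -0.94 and -0.96. Quantile normalization put the nuclear members at -0.08 and the mitochondrial members at -1.58.

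Promoter sequence was searched for what the nuclear members share beyond the list. RefSeq windows (GRCm38.p6) from 250 bases before to 50 after the gene start were at hand for 31 of 41 nuclear members. The NRF1 core GCGCATGC, on either strand, was in 6 of 31 (19.35%) and in 3.05% of 27025 genes. The YY1 core AAGATGGC was in 4 (12.9% against 3.19%) and the ETS core CCGGAAGT in 3 (9.68% against 4.31%). 13 of 31 held any of them (41.9% against 9.91%). NRF1 is a known activator of nuclear genes for mitochondrial proteins. A match of letters is a description and not a bound site. The stretches around the NRF1 core, in capitals, lie at chr4:140961209-140961232 (plus strand) for Sdhb, chr6:50566614-50566637 (minus) for Cycs, chr15:82354359-82354382 (minus) for Ndufa6 and chr2:36049331-36049354 (minus) for Ndufa8:
Sdhb: cccagtggGCATGCGCcctacggg
Cycs: gctagctcGCATGCGCgcgcacaa
Ndufa6: gcggtagaGCATGCGCattgcaga
Ndufa8: ctggagacGCATGCGCagatggta

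Among tissue isoforms of the subunits, 1 gene changed strongly with injury. Cox6a2, the heart and muscle form of the complex IV subunit whose common form is Cox6a1, had 25.3 to 57.7 normalized counts in WT naïve and 1095, 242 and 345 in WT ONC, a log2 rise of 3.56 (SE 0.52). After IOP elevation it had 31.1, 106, 55.6 and 33.7 in WT, which overlapped the naïve libraries and was not called. In KO it rose from 11.3 to 23.8 in naïve libraries to 299, 487, 501 and 303 after ONC (4.43, SE 0.48) and to between 99.8 and 119 after IOP elevation (2.61, SE 0.48). The interaction of genotype and IOP elevation was 2.19 (SE 0.68, adjusted p = 0.0455). Every injured KO library exceeded every naïve KO library. Cox6a1 had 2537 to 8439 in all libraries. Cox4i2, an alternative form of Cox4i1, fell by 1.22 in KO after ONC. Cox8c and Cyct, testis forms, were at 0 in all 23 libraries.

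Other nuclear subunits are read against the 7.55% of all genes that were called higher in WT after ONC and the 12.7% in KO. Of 21 other subunits of complexes I, III and IV, 1 rose in WT after ONC (Ndufa3, 1.06), with a median of 0.61 over the 21. For KO against WT after IOP elevation their median was -0.41, with 1 of 21 positive. Of 16 nuclear subunits of ATP synthase, 4 rose in WT after ONC (Atp5k, Atp5j, Atp5j2 and Atp5c1, by 0.68 to 0.95) and Atp5g2 rose in KO after ONC by 0.79. Of 76 mitochondrial ribosomal proteins, 12 rose and 1 fell in WT after ONC, and 4 rose and 1 fell in KO after ONC. After IOP elevation Mrps25 rose by 1.93 in WT (663 to 921 in naïve, 1386 to 6002 in IOP libraries) and was lower in KO than in WT by a log2 difference of -1.75. Mrps25 (-1.86, adjusted p = 0.0249) and Mrpl49 (-0.86, adjusted p = 0.0270) also had a called genotype by IOP interaction.

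Of 39 assembly factors tested, 1 was called lower in KO than in WT under elevated IOP, where 1.64% of all genes were. Ndufaf4, an assembly factor of complex I, had 650 to 1146 normalized counts in WT IOP and 363 to 527 in KO IOP (-0.88, SE 0.21, adjusted p = 0.0294). Ndufaf2, of the same complex, rose in WT after IOP elevation by 0.98, where 0.842% of all genes were called higher. Of 20 genes for expression of the mitochondrial genome, 12 were positive for KO against WT after IOP elevation, with a median of 0.13 and a lowest adjusted p of 0.0640 in limma. Lrpprc, which stabilizes mitochondrial mRNA, and Polg, the mitochondrial DNA polymerase, rose in WT after ONC by 1.36 and 1.24. There 7.55% of all genes were called higher.

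Of 8 tested regulators of mitochondrial biogenesis, 3 fell after ONC in each genotype, where 10.5% of all genes in WT and 11.0% in KO were called lower. Over the 8 the median was -0.16 in WT with 1 positive, and 0.05 in KO with 5 positive. Ppargc1a, the coactivator PGC-1 alpha, fell by 1.18 in WT (570 to 692 normalized counts in naïve, 169 to 556 in ONC libraries) and by 1.41 in KO, Ppargc1b by 1.26 and 1.16, and the deacetylase Sirt3 by 0.62 and 0.67. Pprc1 rose in KO by 0.78. Of 20 glycolysis genes, 4 fell in WT after ONC, and 10 fell and 2 rose in KO. Pfkm, a phosphofructokinase, fell by 1.81 in WT and 1.18 in KO, and Eno2, the neuronal enolase, had differences of -1.80 and -1.24. Retinal ganglion cell genes summed to between 8793 and 13456 in WT naïve and 558 to 2520 in WT ONC, and to 11906 to 14190 in KO naïve and 1673 to 3035 in KO ONC, and their part in these falls was not tested. Of 16 tricarboxylic acid cycle genes, Suclg2 rose in KO after ONC by 1.11 and Idh2 rose in KO after IOP elevation by 0.65.

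The genes outside the list whose log2 values followed the mitochondrial mean most closely over 23 libraries were Gm10925 (r = 0.95), Gm20594 (0.94), Cfl2 (0.88), Lgsn (0.88) and Cd24a (0.87). Lgsn, lengsin, is a lens gene, and the lens mean itself had r = 0.82 with the mitochondrial mean. For the nuclear mean they were Elob, Cox7c, Atp5l, Ndufab1 and Ndufa13 (0.96 each), 4 of which encode subunits of the respiratory chain or ATP synthase.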

How the data were processed

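GFP+ retinal microglia had been sorted by FACS, and RNA of 23 pools was amplified with a SMARTer kit and sequenced as paired reads. The deposited values are a signal on a linear scale, namely normalized counts per gene, in which 21 libraries hold whole reads scaled by 1 factor each. KO IOP replicates 2 and 4 did not give whole reads under a single factor, and how their values were made is not known. The submitters' processing notes name STAR, DESeq2 and GRCm38, and the study's methods name salmon. Strand handling is not given in the sources used here.

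Of 35825 gene IDs, 34732 matched a symbol of GENCODE vM21. Values were tested as log2(normalized count + 1) with limma 3.58.1 (R 4.3.3) on 6 groups, with a mean-variance trend, for the 17102 genes with at least 10 in at least 3 libraries. A gene was called at a Benjamini-Hochberg adjusted p under 0.05 over all tested genes and an absolute log2 fold change over 0.58. An interaction is the KO change minus the WT change. The text names all mitochondrial members, and nuclear members that were called, had the highest or lowest level per length or the largest difference in their complex, or did not overlap between KO and WT. It also names the isoforms, up to 5 called genes of each other list, and the 5 genes most correlated with each mean.

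The members and gene lists were chosen with earlier results of these data known. The per-library means carry no test. Whole reads could be recovered within 0.1 for 21 libraries, and edgeR 4.0.16 and DESeq2 1.42.0 were run on these as alternatives, without KO IOP replicates 2 and 4. A count of 3 reads corresponded to 2.41 to 4.03 normalized counts. On data simulated for KO against WT after IOP elevation (14675 genes, 4 against 4 libraries), limma recovered 63 of 92 genes changed by 2 and 11 of 108 changed by 1 on the log2 scale, with 5 false calls. Further alternatives were other pseudocounts, filters, scalings, groups alone, a rod covariate, a replicate block and leaving out each library. The microglia and lens covariates, the copies added to their genes, and the joint omissions of WT IOP replicates 1 and 4 and of KO IOP replicates 2 and 4 were chosen after seeing the data.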

Additional observations from a re-analysis of the deposited data

Results flagged for a closer look

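In groups of 4 libraries, 10 of 280 combinations of a group with a member or with the mean of either genome had a library far from the other 3, and chance alone gives about 1 in 20. Values are log2(normalized count + 1). The high libraries were KO naïve 4 for Ndufa5 (10.53), KO ONC 2 for Ndufa8 (11.31) and Cycs (11.34), KO IOP 1 for Ndufa9 (12.02), and WT naïve 2 for Ndufb10 (10.94) and Cox6a1 (11.58). The low libraries were KO naïve 3 for Ndufa10 (11.28) and Ndufv2 (11.23), KO ONC 4 for Uqcrb (11.30) and WT naïve 1 for Cox5a (9.61).

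The change from naïve to IOP elevation differed between KO and WT by the interaction term in limma for 13 members. The KO change minus the WT change was -1.55 for mt-Nd1, -1.64 for mt-Nd2, -2.31 for mt-Nd3, -1.73 for mt-Nd4, -1.35 for mt-Nd4l, -1.37 for mt-Nd5, -1.62 for mt-Nd6, -1.47 for mt-Co2, -1.50 for mt-Co3, -1.55 for mt-Atp6, -1.36 for mt-Atp8, -1.51 for mt-Cytb and -1.36 for Ndufa4. The call of Ndufa4 was lost in 12 of the 16 fits that left out 1 library.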

How the results depend on the processing

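No called member changed sign under an alternative. mt-Nd3, not called for KO against WT in naïve retinas, went from 0.62 to -0.06 with its copy added. Called members for KO against WT after IOP elevation (12 in the report) were 1 in edgeR, 0 with the lens covariate, 0 without WT IOP replicates 1 and 4 together, 6 without KO IOP replicates 2 and 4 together, and 7 to 14 when 1 library was left out. For WT IOP against naïve (9) they were 0 with the lens covariate, 0 without the 2 WT IOP libraries, and 4 to 10 when 1 library was left out. For the interaction with IOP elevation (13) they were 21 under quantile normalization, 3 with the microglia covariate, 0 with the lens covariate, 1 without the 2 WT IOP libraries, and 10 to 15 when 1 library was left out. For WT ONC against naïve (12) they were 5 with the rod covariate, 0 with the groups of the comparison alone, 21 in DESeq2, 23 with the lens covariate, and 0 to 26 when 1 library was left out. For KO ONC against naïve (14) they were 9 with the rod covariate, 7 with the microglia covariate, and 13 to 16 when 1 library was left out. For KO IOP against naïve (0) they were 10 under quantile normalization and 10 with equal totals over nuclear genes. For KO against WT in naïve retinas (0) they were 3 under quantile normalization, and for the interaction with ONC (0) 1. In these and in KO against WT after ONC (0), leaving out 1 library gave 0 to 1. The cause was not tested in any of these, beyond the fewer libraries of the omissions. The lens covariate cannot be separated from the WT IOP group, so its counts of 0 decide nothing.

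The mitochondrial mean difference moved under quantile normalization to 0.58 for KO against WT in naïve retinas, -0.81 for WT ONC, -0.77 for KO IOP and -1.60 for KO ONC, and with equal totals over nuclear genes to -0.75 for WT ONC and -1.48 for KO ONC. The nuclear mean difference moved under quantile normalization to 0.21 for KO against WT in naïve retinas, -0.21 for KO IOP and -0.10 for KO ONC, where it was 0.13 as deposited. With equal totals it moved to 0.25, -0.28 and -0.30 in these comparisons and to -0.42 for KO against WT after IOP elevation, and with upper-quartile rescaling to -0.11 for KO IOP. When 1 library was left out it ran from -0.57 to 0.08 for KO against WT after ONC and from 0.13 to 0.78 for WT ONC.

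Same-numbered libraries did not deviate together (55 pairs, correlations of -0.25 to 0.23, 10 above 0.1), so the numbers were not taken as pairs. With the replicate block 13 members were called for KO against WT after IOP elevation. In simulated data for that comparison 11 of 108 genes changed by 1 on the log2 scale were recovered. In the measured data 12 of the 13 mitochondrial members were called there, with a median difference of -1.08. The simulated recovery therefore does not give the share of such changes missed in the fit over all groups. A change of that size in a single gene can still be missed.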

Other observations

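3 nuclear members shared a low pattern that crossed the groups and was noticed after the values were seen. Uqcrfs1, Cyc1 and Cox5a had their 4 lowest values in WT naïve 1, WT IOP 3, WT IOP 4 and KO naïve 4, as did 360 of the 17102 tested genes. Uqcrfs1 had 534, 1406, 607 and 969 normalized counts there and 1871 or more in every other library. Over 23 libraries the Pearson correlation was 0.96 between Uqcrfs1 and Cyc1, 0.90 between Uqcrfs1 and Cox5a and 0.86 between Cyc1 and Cox5a. These libraries enter the difference of 0.59 for Uqcrfs1 between KO and WT after IOP elevation.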
